A study of Mus musculus with 8 samples.

Results

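Transcellular calcium absorption in the gut uses a channel, a carrier and a pump, and 5 of its genes were followed in mouse colon. They are S100g, which encodes the cytosolic calcium carrier calbindin-D9k; Trpv6, the apical calcium channel; Atp2b1, the basolateral calcium pump PMCA1; and Vdr and Rxra, the vitamin D receptor and its retinoid X partner. S100g was chosen by its measured log2 ratio, the largest rise of STAT5b-/- over WT, so its difference from wild type is given as a description with no test. The other 4 members were listed for their role, with earlier results of these data known. Each of the 5 has 1 probe set on the array, out of 26180 probe sets and 14351 named genes.

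The arrays are 3 titled WT, of wild type females; 3 titled STAT5b-/-, deficient in the transcription factor STAT5b, of which replicate 1 was from a male and replicates 2 and 3 from females; and 2 titled REF, wild type females. All were of adult mouse colon, labelled from 100 ng of total RNA. The labels give no strain, exact age, diet, gut segment or way of making the STAT5b allele, and they do not say what REF stands for or whether each array came from its own animal; the p-values therefore reflect only the variation among these arrays, part or all of which may be technical. The 2 REF columns were the same to within 2.47e-07 of their value, below sampling noise, and count here as 1 sample. Every value is a linear ratio in which the WT arrays average 1, so a gene can be compared between samples but not with another gene, and whether any gene is bright or dim cannot be read. For the same reason the colon label could not be checked by the level of a marker. Stat5b itself had ratios of 1.08, 0.930 and 0.993 in WT and 1.16, 1.17 and 1.26 in the arrays labelled STAT5b-/-, so its probe set did not check the genotype, and every direction below rests on the labels.

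In an absorptive gut cell, calcium enters through TRPV6 at the apical membrane, is carried across the cytosol by calbindin-D9k and leaves through PMCA1 or a sodium-calcium exchanger. The active form of vitamin D binds its receptor, which pairs with a retinoid X receptor and binds direct repeats of a half-site in DNA, and S100g and Trpv6 are the textbook targets of this receptor in the intestine. In rodents this route is best known in the duodenum and is also found in caecum and colon.

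The starts of S100g and Trpv6 are shown because these genes encode the channel and the carrier of this route and both are targets of the receptor. Each sequence runs from 250 bases before to 50 bases after the RefSeq start (build GRCm38.p6), with capitals marking the half-site AGGTCA or its complement and the STAT-type element TTCNNNGAA, searched on both strands.
S100g, chrX:162964550-162964849, minus strand: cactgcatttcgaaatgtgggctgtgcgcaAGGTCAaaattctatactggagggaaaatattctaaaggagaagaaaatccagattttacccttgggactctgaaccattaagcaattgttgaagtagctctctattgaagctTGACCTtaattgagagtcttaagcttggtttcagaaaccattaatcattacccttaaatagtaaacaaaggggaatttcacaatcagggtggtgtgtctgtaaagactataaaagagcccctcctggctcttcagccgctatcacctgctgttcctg
Trpv6, chr6:41636356-41636655, minus strand: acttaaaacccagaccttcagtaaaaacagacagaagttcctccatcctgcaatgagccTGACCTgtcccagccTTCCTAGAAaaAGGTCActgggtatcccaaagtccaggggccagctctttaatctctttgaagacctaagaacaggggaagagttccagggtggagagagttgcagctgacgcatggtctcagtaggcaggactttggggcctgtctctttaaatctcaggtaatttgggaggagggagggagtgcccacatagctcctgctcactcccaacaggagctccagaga

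The S100g window held 2 half-sites, 1 on each strand, beginning 220 and 107 bases before the start. The Trpv6 window also held 2, on opposite strands, at 191 and 165 bases before the start, and between them 1 STAT-type match, TTCCTAGAA, at 176 bases; none of these matches overlapped. Of 32851 windows of this length in the table, 16.3% held at least 1 half-site, 1.81% held 2 or more and 8.3% held the STAT-type element. Of the 7 windows of the 5 members, the second of 2 starts of Rxra also held 2 half-sites, and those of Vdr and Atp2b1 and the first of Rxra held none of these motifs. The spaced repeat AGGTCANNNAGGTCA was in no member's window and in 2 of the 32851. A match is a description of letters and says nothing of binding.

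S100g was far higher in all arrays labelled STAT5b-/-. Its ratios were 0.791, 0.999 and 1.21 in WT, 147, 132 and 199 in STAT5b-/-, and 2.65 in REF. The mean was 1 ± 0.21 in WT and 159 ± 35 in STAT5b-/- (SD, n = 3), a log2 difference of 7.32 ± 0.22 (SE). The lowest STAT5b-/- array stood 109-fold above the highest WT array, while the highest and lowest arrays of a group differed by 1.53-fold in WT and 1.5-fold in STAT5b-/-. This rise chose the gene: it ranked 1 of 14351 genes, and the next largest rise was 79.3-fold. The male, replicate 1, lay between both females.

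REF was not used to choose S100g. Its ratio of 2.65 lay above every WT array, with a log2 difference of 1.43 ± 0.31 (SE), and STAT5b-/- arrays were 59.2-fold above REF. The difference between REF and WT did not pass limma's test over all genes (adjusted p = 0.998; unadjusted p = 0.00803). No gene of 14351 passed in that comparison, which is 0% called, and 208 genes (1.45%) had an unadjusted p under 0.05. REF lay above all WT arrays in 20.1% of genes, so the position of 1 sample above 3 is common in this series. The order for S100g was thus WT, then REF, then STAT5b-/-, with WT and REF not separated by the test. Over all probe sets, the SD of log2 ratios was 0.289 to 0.363 in WT arrays, 0.402 in REF and 0.646 to 0.737 in STAT5b-/-. Forcing one distribution on these arrays widens WT and REF and narrows STAT5b-/-. The distances depend on the scaling: under quantile normalization, which gives all arrays one distribution, REF stood 3.41 ± 0.49 (SE) above WT on the log2 scale (adjusted p = 1) and STAT5b-/- 4.01 above WT, only 1.52-fold above REF.

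**Figure D1:**
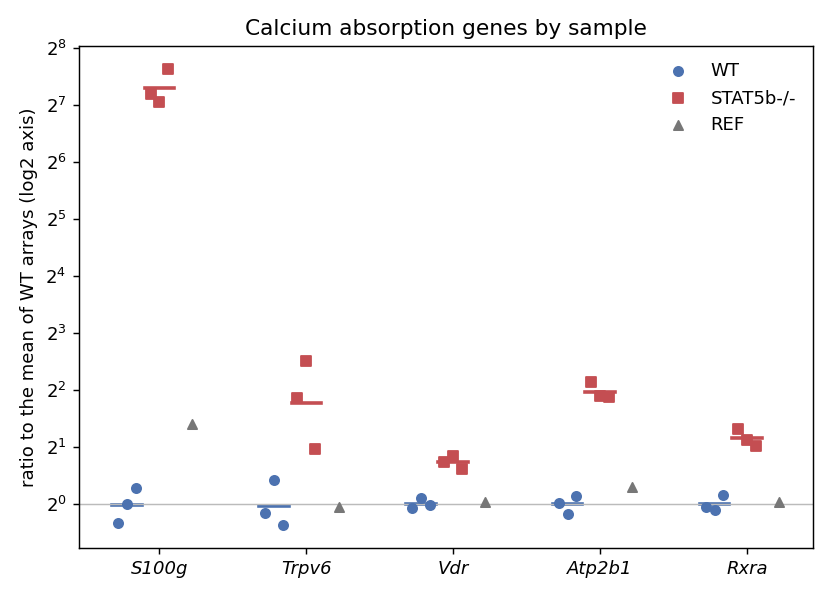
Ratio to the WT mean (log2 axis) for the 5 genes, with circles for WT, squares for STAT5b-/- and a triangle for REF; bars are group means of log2 ratios. All STAT5b-/- arrays lie above all WT arrays for each gene, and REF lies above the WT arrays for S100g and Atp2b1.

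Trpv6, the entry channel, had ratios of 0.894, 1.33 and 0.773 in WT, 3.62, 5.69 and 1.94 in STAT5b-/-, and 0.957 in REF. The STAT5b-/- arrays were all higher, but they spread 2.93-fold, wider than the other members, and the lowest stood only 1.46-fold above the highest WT array. The log2 fold change was 1.81 ± 0.40 (SE; limma adjusted p = 0.0203), and REF lay within the WT range. This call was lost without STAT5b-/- replicate 1 (adjusted p = 0.0795), STAT5b-/- replicate 2 (0.056), WT replicate 1 (0.0557) or WT replicate 3 (0.0675), with log2 fold changes from 1.45 to 2.22 over the 6 fits that left out 1 array. Within STAT5b-/-, replicate 3 was the highest for S100g and the lowest for each of the other 4 members.

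Atp2b1, the exit pump, had ratios of 1.01, 0.882 and 1.1 in WT, 4.41, 3.7 and 3.66 in STAT5b-/-, and 1.23 in REF. It rose 3.92-fold, by 1.97 ± 0.15 on the log2 scale (limma adjusted p = 0.000425), with the lowest STAT5b-/- array 3.31-fold above the highest WT array. REF was just above the WT range, by a log2 difference of 0.30 ± 0.23 from the WT mean (adjusted p = 0.998).

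Both receptor genes rose by less. Vdr had ratios of 0.944, 1.07 and 0.988 in WT, 1.66, 1.78 and 1.53 in STAT5b-/-, and 1.02 in REF, higher by 0.73 ± 0.12 on the log2 scale (limma adjusted p = 0.008). Rxra had ratios of 0.964, 0.927 and 1.11 in WT, 2.47, 2.18 and 2.01 in STAT5b-/-, and 1.02 in REF, higher by 1.15 ± 0.14 (adjusted p = 0.00239). For each the groups did not overlap and REF lay within the WT range. The other partners of the vitamin D receptor did not pass: the log2 difference was 0.56 ± 0.22 for Rxrb (adjusted p = 0.114), with groups apart, and -0.08 ± 0.25 for Rxrg (adjusted p = 0.85).

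Of the members listed for their role, 4 of 4 were called higher. Over all 14351 genes, 13.3% were called higher and 8.42% lower in the same comparison. Their median log2 fold change was 1.48, against 0.01 over all genes, and 0.03 for REF against WT. The groups were apart in the same direction for each of them, as for 25% of all genes. The list is small and was drawn up with earlier results of these data known. Its count and median therefore cannot be read against those over all genes. When arrays were forced to one distribution by quantile normalization, Atp2b1 kept its call (log2 fold change 1.21, adjusted p = 0.0359), and Trpv6, Vdr and Rxra had log2 fold changes of 1.24, 0.52 and 0.74 with adjusted p = 0.097, 0.103 and 0.104.

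The wider pathway, apart from the members, was called at shares near those of all genes. Of 102 listed genes other than S100g, 90 were measured, and 18 were called higher (20%) and 7 lower (7.78%). Without the 4 members, 14 of 86 were higher (16.3%) and 7 lower (8.14%), near the 13.3% and 8.42% over all genes, and the median log2 fold change was -0.08. Slc30a10 and Slc37a2 were already known as large rises when listed. Leaving them out as well, 12 of 84 were higher (14.3%) and 7 lower (8.33%). The count of list genes called lower fell from 7 to 4 without WT replicate 1, STAT5b-/- replicate 1 or STAT5b-/- replicate 2, and to 3 without STAT5b-/- replicate 3. Of the 21 calls among the 86 genes, 12 held in all 6 fits that left out 1 array, and 2 held under quantile normalization, those of Slc30a10 and Trpm6.

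**Figure D2:**
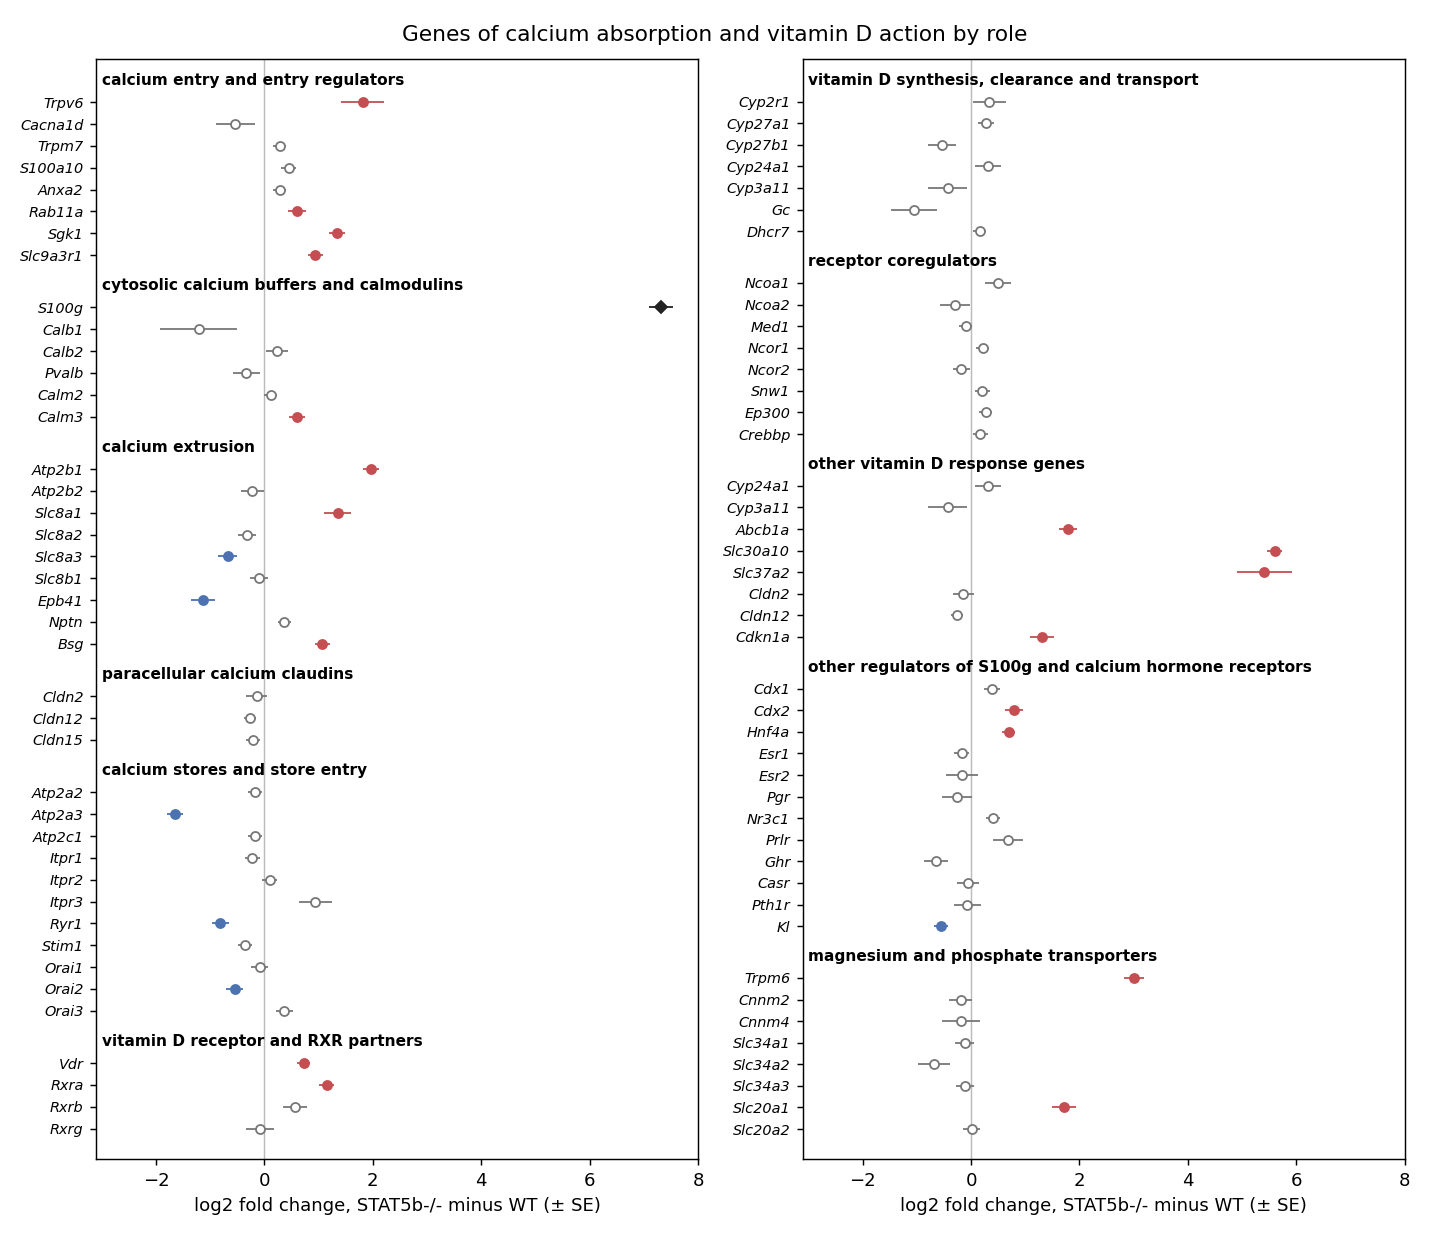
Log2 fold change of STAT5b-/- minus WT (± SE) for measured genes of calcium absorption and vitamin D action, by role; filled red is called higher, filled blue called lower, open grey not called (limma adjusted p under 0.05), and the black diamond is S100g, shown without a test. The largest rises are S100g at 7.32, Slc30a10 at 5.60, Slc37a2 at 5.41 and Trpm6 at 3.01. The other genes lie between -1.65 (Atp2a3) and 1.97 (Atp2b1).

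Among genes of calcium entry, 4 of 8 measured, the member Trpv6 included, were higher and 0 lower, against 13.3% and 8.42% of all genes. Besides Trpv6 these were Sgk1, a kinase that raises the activity of epithelial channels, with ratios of 2.42, 2.45 and 2.69 in STAT5b-/- and 1.46 in REF (log2 fold change 1.34 ± 0.15, limma adjusted p = 0.00176), Slc9a3r1, an apical scaffold protein (0.94 ± 0.14), and Rab11a, a GTPase of recycling vesicles (0.60 ± 0.16). S100a10 and Anxa2, which form a complex that carries TRPV channels to the membrane, missed the threshold at 0.45 ± 0.14 and 0.28 ± 0.12 (adjusted p = 0.0569 and 0.147). The call of Rab11a was lost in 5 of the 6 fits that left out an array, all but the one without WT replicate 2, with adjusted p from 0.0528 to 0.128.

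None of the other dedicated cytosolic calcium buffers measured, Calb1, Calb2 and Pvalb, passed the test, and S100g was given none. Calb1, the larger calbindin-D28k of kidney and brain, had ratios of 1.59, 1.2 and 0.212 in WT and 0.257, 0.376 and 0.341 in STAT5b-/-, with groups that overlapped (log2 fold change -1.21 ± 0.71, limma adjusted p = 0.289). Calb2 and Pvalb did not pass either (adjusted p = 0.474 and 0.412). Of the calmodulin genes, Calm3 was higher by 0.60 ± 0.15, and Calm2 had a log2 fold change of 0.12 ± 0.12. The call of Calm3 was lost without WT replicate 3 or any 1 of the STAT5b-/- arrays (adjusted p from 0.0961 to 0.106).

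S100g belongs to the S100 family of small EF-hand proteins. Of 12 measured relatives, limma called 0 higher and 1 lower, against 13.3% and 8.42% of all genes, shares too small for these counts to set the family apart. At an unadjusted p under 0.05 the counts were 2 and 3, against 21.1% and 14% of all genes. Their median log2 fold change was -0.13. The one called lower, S100a4, a protein of stromal and immune cells, had ratios of 0.39, 0.735 and 0.516 in STAT5b-/- (log2 fold change -0.90 ± 0.26, adjusted p = 0.0485), a call that held only without STAT5b-/- replicate 2 (adjusted p up to 0.133 in the others). S100a8 and S100a9, the calprotectin subunits of neutrophils, had low ratios in STAT5b-/- and in REF alike, at 0.319 and 0.215 in REF, and ranged from 0.429 to 1.71 and from 0.272 to 1.81 among the WT arrays. Their log2 fold changes of -1.51 ± 0.47 and -1.72 ± 0.71 did not pass (adjusted p = 0.0624 and 0.139).

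**Figure D3:**
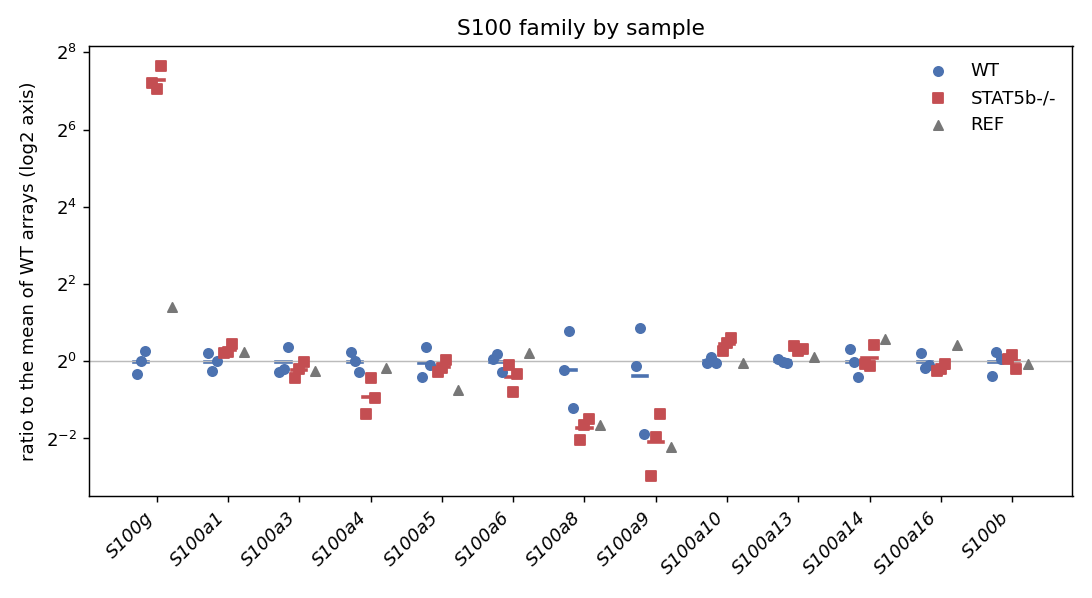
Ratio to the WT mean (log2 axis) for S100g and its 12 measured relatives, with circles for WT, squares for STAT5b-/-, a triangle for REF and bars for group means of log2 ratios. S100g is at 132 to 199 in STAT5b-/-, while the relatives lie between 0.128 and 1.52 there.

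S100g lies on the X chromosome, away from most of its family, and its neighbours in the RefSeq gene order were looked up after its value was known. Ctps2, a CTP synthase whose annotated span overlaps that of S100g, had ratios of 0.923, 1.1 and 1.09 in STAT5b-/- (log2 fold change 0.05 ± 0.14, limma adjusted p = 0.826). On that side, Syap1 and Rbbp7 had log2 fold changes of 0.37 ± 0.13 and -0.04 ± 0.12 (adjusted p = 0.0915 and 0.871). On the other side the nearest measured gene, Grpr, the receptor for gastrin-releasing peptide, fell by 2.31 ± 0.29 (adjusted p = 0.00254), and Rnf138rt1 and Ap1s2 did not pass (adjusted p = 0.966 and 0.418). Of these 6 neighbours limma called 0 higher (1 at an unadjusted p under 0.05, Syap1) and only Grpr lower. Over all genes 13.3% were called higher (21.1% at an unadjusted p under 0.05) and 8.42% lower. The neighbours are too few to be set apart from these shares.

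Genes of calcium exit went both ways, with 3 of 9 measured, the member Atp2b1 included, called higher and 2 lower, against 13.3% and 8.42% of all genes. After Atp2b1, the sodium-calcium exchanger Slc8a1 was higher, with ratios of 0.699, 1.36 and 0.94 in WT and 2.12, 2.57 and 2.74 in STAT5b-/- (log2 fold change 1.35 ± 0.25, limma adjusted p = 0.0111; adjusted p = 0.0503 without STAT5b-/- replicate 2). Bsg, basigin, a partner subunit of calcium pumps and of monocarboxylate transporters, rose by 1.07 ± 0.14 (adjusted p = 0.0033). Epb41, a protein of the membrane skeleton, fell by 1.13 ± 0.22 (adjusted p = 0.0124), and the exchanger Slc8a3 fell by 0.68 ± 0.18, a call that was kept only without STAT5b-/- replicate 1 (adjusted p up to 0.121 in the others). The pump Atp2b2 did not pass (-0.22 ± 0.22, adjusted p = 0.539).

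No gene of the paracellular route or of intracellular stores was called higher, in lists too small to set apart from all genes (13.3% higher, 8.42% lower). Cldn2, Cldn12 and Cldn15, claudins that let cations pass between cells, had log2 fold changes of -0.14 ± 0.19, -0.26 ± 0.11 and -0.21 ± 0.13, with 0 of 3 called by limma (adjusted p from 0.145 to 0.649; 0 at an unadjusted p under 0.05). Of 11 genes of calcium stores and store-operated entry, limma called 0 higher and 3 lower (2 and 4 at an unadjusted p under 0.05). Atp2a3, the SERCA3 pump of the endoplasmic reticulum, had ratios of 0.304, 0.314 and 0.33 in STAT5b-/- and 0.987 in REF, and fell 3.14-fold (adjusted p = 0.000907). The release channel Ryr1 fell by 0.81 ± 0.15 (adjusted p = 0.0106; 0.0513 without STAT5b-/- replicate 2), and the store-operated channel Orai2 by 0.55 ± 0.15, which held only without WT replicate 2 (adjusted p up to 0.118 in the others).

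Genes that make, clear or carry vitamin D were not called in either direction, with 0 of 7 measured past the limma threshold (1, the plasma vitamin D carrier Gc, lower at an unadjusted p under 0.05). With 13.3% of all genes called higher and 8.42% lower, 0 of 7 does not set this list apart. Cyp24a1, which degrades active vitamin D and is the most sensitive target of the receptor in many tissues, had ratios of 0.724, 1.34 and 0.937 in WT and 1.26, 1.01 and 1.36 in STAT5b-/-, with groups that overlapped (log2 fold change 0.31 ± 0.24, adjusted p = 0.431). Cyp27b1, the activating hydroxylase, had ratios of 0.957, 0.455 and 0.745 in STAT5b-/- (-0.54 ± 0.26, adjusted p = 0.201). Whether the signal of either probe set was above background is not known from ratios. Of 8 measured coactivators and corepressors of nuclear receptors, limma called 0 (also 0 at an unadjusted p under 0.05), again too few genes to set the list apart. Their log2 fold changes lay between -0.30 and 0.49.

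Other genes known to respond to vitamin D in the gut or elsewhere split, with 4 of 8 measured higher and 0 lower, against 13.3% and 8.42% of all genes. Slc30a10, a manganese exporter, had ratios of 47.6, 52.1 and 45.4 in STAT5b-/- and 0.751 in REF (log2 fold change 5.60 ± 0.14, limma adjusted p = 1.1e-05). Slc37a2, a sugar phosphate exchanger, had ratios of 0.999, 1.65 and 0.355 in WT, 38.7, 35.4 and 32.5 in STAT5b-/- and 0.461 in REF (5.41 ± 0.51, adjusted p = 0.00094). Both were already known as large rises in these data when the list was made, so the count of 4 cannot be read against the share over all genes. Abcb1a, the drug efflux pump P-glycoprotein, rose 3.47-fold (adjusted p = 0.000743), and Cdkn1a, the cell cycle inhibitor p21, by 1.31 ± 0.22 (adjusted p = 0.00715). Cyp24a1, Cyp3a11, Cldn2 and Cldn12 did not pass.

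Of 12 other regulators and hormone receptors tied to S100g or to calcium balance, 2 were higher and 1 lower. These shares, 16.7% and 8.33%, were near the 13.3% and 8.42% of all genes. Cdx2 and Hnf4a, transcription factors of the intestinal epithelium, rose by 0.79 ± 0.17 and 0.70 ± 0.12 (limma adjusted p = 0.0185 and 0.00801), and the call of Cdx2 was lost without STAT5b-/- replicate 1 (adjusted p = 0.0585), replicate 2 (0.0744) or replicate 3 (0.0693). Kl, the FGF23 coreceptor Klotho, had ratios of 0.608, 0.773 and 0.682 in STAT5b-/- and 0.634 in REF, a wild type sample in the same range; its call (adjusted p = 0.0281) held only without WT replicate 2 or STAT5b-/- replicate 2 (adjusted p up to 0.097 in the others). The oestrogen receptor Esr1, which drives S100g in the uterus, differed by -0.17 ± 0.14 (adjusted p = 0.454). Prlr and Ghr, the receptors for prolactin and growth hormone upstream of STAT5b, had log2 fold changes of 0.68 ± 0.27 and -0.64 ± 0.22 with groups apart, and neither passed (adjusted p = 0.129 and 0.0802).

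Carriers of the other main minerals were included for comparison, with 2 of 8 higher and 0 lower, against 13.3% and 8.42% of all genes. Trpm6, the apical magnesium channel, had ratios of 1.06, 1.05 and 0.887 in WT, 9.77, 7.97 and 6.59 in STAT5b-/- and 1.59 in REF, a rise of 8.03-fold (log2 fold change 3.01 ± 0.18, limma adjusted p = 0.000199). As for S100g and Atp2b1, REF was above each WT array, a position it held in 20.1% of all genes. The phosphate carrier Slc20a1 rose 3.3-fold, with ratios of 3.64, 3.35 and 2.75 in STAT5b-/- (adjusted p = 0.00292), while the intestinal phosphate carrier Slc34a2 did not pass (-0.68 ± 0.30, adjusted p = 0.164).

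Markers of cell types and of gut position moved beside these genes. Absorptive colonocyte markers were higher in 8 of 11 and lower in 0, against 13.3% and 8.42% of all genes. The same shares apply to the lists that follow. The median log2 ratio of colonocyte markers was 0.83 to 0.91 in the STAT5b-/- arrays, -0.03 to 0.03 in WT and 0.02 in REF. Tmigd1 rose by 2.79 ± 0.27 and Aqp8 by 1.45 ± 0.15. Car4 went the other way, at -0.63 ± 0.25 with groups apart, and did not pass (limma adjusted p = 0.123). It was the 1 marker of this list lower at an unadjusted p under 0.05. In bulk tissue, more cells of a type and more RNA per cell cannot be told apart. Hox genes used as markers of the proximal colon were higher in 5 of 8 and lower in 0, with medians of 1.19 to 1.35 in STAT5b-/-, -0.10 to 0.06 in WT and 0.18 in REF, and Hoxb13, a distal gene, fell by 4.89 ± 0.58. Distal markers as a list were split, with 2 of 8 higher and 2 lower. Hoxd10 and Hoxd11 rose by 2.45 ± 0.39 and 0.72 ± 0.12, and besides Hoxb13, Hoxa13 fell by 1.43 ± 0.30. Goblet cell markers were lower in 4 of 6, with medians from -1.72 to -1.12 in STAT5b-/-, and immune cell markers lower in 3 of 5 and higher in 1. The part of these shifts in the results for S100g and its pathway was not tested.

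Markers of small intestine enterocytes, cells that also carry S100g and Trpv6, were split: 3 of 15 rose and 1 fell, against 13.3% and 8.42% of all genes. List medians were -0.10 to 0.14 in STAT5b-/-, -0.18 to 0.25 in WT and -0.36 in REF. The ileal bile acid carrier Slc10a2 rose by 4.0 ± 0.38, Rbp2 by 1.76 ± 0.32 and Fabp2 by 1.19 ± 0.21, while the peptide carrier Slc15a1 fell by 3.74 ± 0.42. Paneth cell markers were lower in 2 of 4, Itln1 and Ang4, and higher in 0. Itln1 was at 0.01, the lowest value in the data, in every STAT5b-/- array, and Ang4 in replicate 3. The size of these falls is therefore limited by that floor. Itln1 also ranged from 0.273 to 1.46 among WT arrays and was at 0.148 in REF, below each of them. Mmp7 and Reg3a were not called, with log2 fold changes of -0.67 and -0.01. Smooth muscle markers were called in 0 of 6, and markers of uterus and kidney, other tissues rich in calbindins, in 0 of 7 by limma. Neither of these lists had a gene at an unadjusted p under 0.05.

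**Figure D4:**
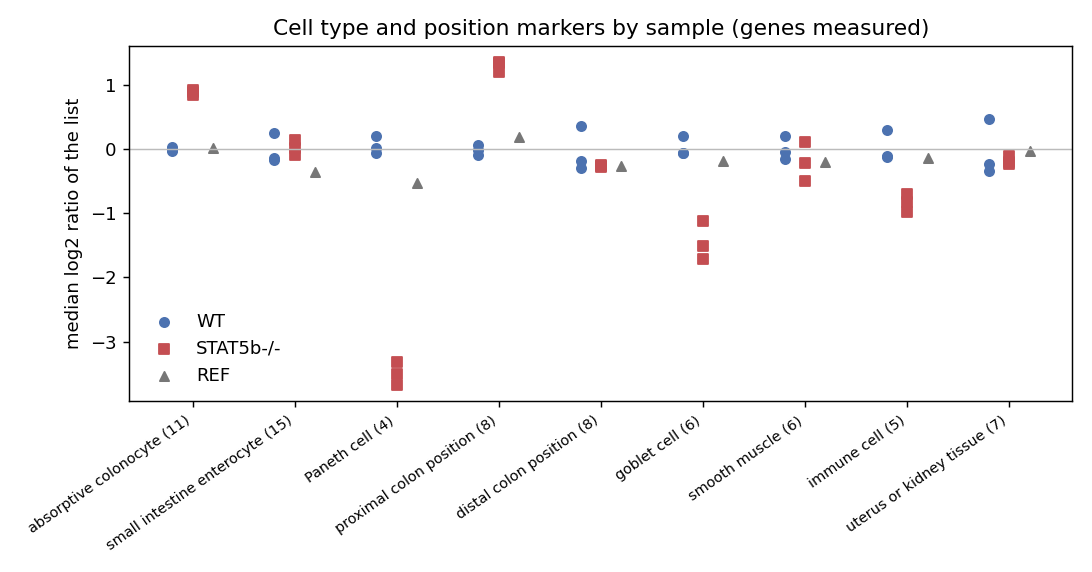
Median log2 ratio of each marker list in each sample, with the number of measured genes in brackets; circles are WT, squares STAT5b-/- and triangles REF. Absorptive colonocyte and proximal position lists lie above the WT arrays in STAT5b-/-, Paneth, goblet and immune lists below, and the small intestine, distal position, smooth muscle and uterus or kidney lists overlap them. The Paneth median rests on 4 genes, of which Itln1 and Ang4 reach the lowest value, 0.01, in STAT5b-/-.

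The genes whose pattern was most like that of S100g over the 7 samples, by Pearson correlation of log2 ratios among 14339 genes with no value at the floor of 0.01, were Sgcb (r = 0.999), Paqr5 (0.997), Etfa (0.997), Acot13 (0.997) and Fa2h (0.996). Their rises were far smaller: Paqr5, a membrane receptor for progestins, rose 6.02-fold, Fa2h, a fatty acid hydroxylase, 3.69-fold, Etfa, of mitochondrial electron transfer, 1.68-fold and Acot13, a thioesterase, 1.42-fold (limma adjusted p = 0.000104, 0.000268, 0.005 and 0.018). Sgcb, a sarcoglycan, had a fold of 1.15 and did not pass (adjusted p = 0.23). All genes share the same 7 points, split into the same groups, and r was over 0.9 for 11.3% of genes. Atp2b1 had r = 0.990 (rank 62), Rxra 0.973 (rank 365), Vdr 0.966 (rank 510) and Trpv6 0.854 (rank 2173).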

How the data were processed

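Colon RNA of 3 WT, 3 STAT5b-/- and 2 REF arrays was used as deposited by the authors. RMA is named in the submitters' processing notes; array type and version are not given in the sources used here. The deposited values are linear ratios: in every probe set the WT arrays average 1, to within 1.87e-07. The lowest, 0.01, was taken as a floor. Accessions in probe set names matched 1 symbol for 15228 of 26180 probe sets (RefSeq, GRCm38.p6) and none for 10952. Ratios were taken to log2 with no pseudocount, averaged per gene and compared with limma 3.58.1 in R 4.3.3, over the 6 arrays of both groups or over REF and WT, with Benjamini-Hochberg adjustment over 14351 genes and a threshold of 0.05. The fit was tested on simulated data. No depth applies to arrays; their number limits the precision.

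Members, lists and the rule for naming genes (the members, called list genes, a fixed set of 12 others and the 5 genes most like S100g) were chosen with earlier results of these data known. Of the 12, Trpv5 was not analysed here. One listed gene is not reported here and was left out of the lists' counts. Alternatives were another normalization, probe set, prior, pseudocount, control group or floor filter, a replicate block and leaving out each array. Promoters came from RefSeq for 5 of 5 members. Same-numbered WT and STAT5b-/- arrays did not deviate together over all genes, which cannot exclude a shared batch.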

Additional observations from a re-analysis of the deposited data

How the results depend on the processing

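S100g had a log2 difference of 7.15 to 7.46 over fits that left out 1 array, 6.96 with REF among the controls and 4.01 under quantile normalization, which gives arrays one distribution by construction and put S100g in REF at 3.41 above WT, against 1.43 as reported. Under that setting Rxra, Trpv6 and Vdr were at 0.74, 1.24 and 0.52 and lost their calls, genes called higher and lower numbered 158 and 239 of all genes (39.8% higher against 61.2% as reported, 1910 and 1209), and list genes 3 and 0. Atp2b1 kept its call under all 14 alternatives, and Vdr and Rxra under 13 of 14. Leaving out 1 array gave Trpv6 values of 1.45 to 2.22, 1053 to 2192 genes higher and 663 to 1359 lower (1180 and 734, 1053 and 663, and 1118 and 734 without STAT5b-/- replicates 1, 2 and 3), and 13 to 21 list genes higher and 3 to 6 lower, against 18 and 7. For REF against WT, values near 0 changed sign: Trpv6 from -0.02 to 0.04 (median centring), 0.12 (quantile normalization) and 0.20 (without WT replicate 2), while leaving out 1 WT array moved Trpv6 between -0.19 and 0.20, Rxra between -0.03 and 0.10 and Vdr between -0.01 and 0.08. With the replicate number as a block, 1238 genes were higher and 801 lower, and 15 list genes higher and 3 lower. The SE fell for Trpv6, from 0.40 to 0.21 (limma adjusted p = 0.0102). It rose for Atp2b1, Vdr and Rxra, to 0.16, 0.14 and 0.17. Over all genes, deviations of same-numbered arrays from their group means had correlations of 0.04, -0.10 and -0.19. With 3 arrays per group, these values cannot exclude that same-numbered arrays shared a batch. With ratios only, dim probe sets could not be filtered.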
